A study of Mus musculus with 2 samples.

Results

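Neutrophils carrying transcripts of the receptor gene Hcar2 and the chemokine genes Ccl3 and Ccl4 were described in single-cell RNA from injured mouse carotid arteries. Barcodes with at least 300 detected genes and at most 15% mitochondrial UMIs (unique molecular identifiers, 1 per captured RNA molecule) were kept. A barcode passed the neutrophil gate with a UMI of at least 2 of the 6 genes Csf3r, Cxcr2, Il1r2, Hdc, Mxd1 and G0s2 and no UMI of Csf1r or Col1a2. The Hcar2/Ccl3 cells were those of the gate with at least 2 of Hcar2, Ccl3 and Ccl4 detected and fewer than 3 of the 6 mature-neutrophil genes Retnlg, Wfdc21, Lrg1, Lcn2, Mmp8 and Ifitm1. There were 483 of them among 2260 cells of the gate, 14451 barcodes that passed the filters and 15613 barcodes in all. The control library held 172 of the Hcar2/Ccl3 cells and the knockout library 311. These same counts chose the cells, so the differences of their genes from other cells are descriptions.

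The control group was Cx43 fl/fl without Cre driven by the Cdh5 promoter (CDH5 Cre-), and the knockout group, EC-Cx43-KO, was Cx43 fl/fl with it (CDH5 Cre+). Both groups carried the floxed alleles of Cx43, a gap junction gene, and the promoter that drives the inducible Cre is that of an endothelial cadherin gene. The number, age and sex of the animals are not given in the sources used here. Carotid arteries were taken 18 hr after a temporary ligation that injures the endothelium, digested briefly to enrich endothelial cells, treated to lyse red cells and frozen. Each group was 1 library of pooled arteries, so no difference between the libraries has a replicate check and no test was made. The intervals given below are 95% intervals of counting error only.

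Neutrophils are short-lived granulocytes that leave the bone marrow with their granule proteins already made and enter injured tissue along chemokine gradients. Csf3r, the receptor for granulocyte colony-stimulating factor, and Il1r2, a decoy receptor for interleukin 1, are typical of them. Ccl3 and Ccl4 are neighbouring genes for chemokines that attract monocytes and lymphocytes, and neutrophils make them after stimulation. Hcar2 is a Gi-coupled receptor for niacin and the ketone body beta-hydroxybutyrate that is found on neutrophils, macrophages and fat cells.

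The control library held 48862850 UMIs and the knockout library 54392831. The libraries shared 17 barcodes, and 2 of the control Hcar2/Ccl3 cells, but 0 of those of the knockout, carried a shared one. Both libraries held cells with Xist UMIs only and cells with Y-linked UMIs only, so both sexes were pooled in each. Gja1, the gene of Cx43, had 13 UMIs in 30 endothelial reference cells of the control and 1 UMI in 51 of the knockout library. The 13 UMIs came from 3 cells. Detection was 10.0% (Clopper-Pearson interval 2.11 to 26.5) and 1.96% (0.05 to 10.4), so the intervals overlap. Gja1 had 0 and 5 UMIs in the marker-low Hcar2/Ccl3 cells described next.

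The gate admitted different kinds of cells, and 18 monocyte and macrophage markers set part of them apart. Among the control Hcar2/Ccl3 cells 134 had 0 to 4 of these markers, 3 had 5 or 6 and 35 had 7 or more. In the knockout library the numbers were 232, 9 and 70. Of the other cells of the gate, 11.1% of the control and 9.68% of the knockout cells had at least 6 of the markers. The cells with at least 6 markers made up 20.3% of the control and 24.4% of the knockout Hcar2/Ccl3 cells, but they held 43.3% and 47.1% of the UMIs, at a median depth of 6608 and 6460 UMIs per cell. Their summed S100a8, a calcium-binding protein gene that dominates neutrophil RNA, was 351 and 202 CPM (UMIs per 1000000 UMIs, summed over the cells), and the summed list of neutrophil markers outside the gate was 3463 and 3844 CPM. The label of activated neutrophils was not borne out for these cells.

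All values are therefore given for the whole set and for marker-low cells, which had fewer than 6 of the macrophage markers and fewer than 3 markers of each of the other cell types listed. This limit was chosen after the counts were seen and is a range, not a type. It left 131 control and 218 knockout Hcar2/Ccl3 cells, and 720 and 765 other cells of the gate. Of the Hcar2/Ccl3 cells removed, 6 control and 17 knockout cells had fewer than 6 macrophage markers but at least 3 of another cell type. All Hcar2/Ccl3 cells removed held 47.7% and 58.2% of the UMIs of the set. The deepest knockout cell, at 24038 UMIs, was removed, with 3 macrophage markers and no UMI of S100a8 or S100a9. In the marker-low Hcar2/Ccl3 cells S100a8 stood at 12716 CPM in control and 14186 CPM in knockout cells, and 92.4% and 94.5% of the cells had a UMI of S100a8 or S100a9. Their neutrophil marker list summed to 46971 and 55804 CPM, with all 20 genes present in both libraries. Of the deeper cells with at least 6 macrophage markers, 74.3% of the control and 59.2% of the knockout cells had an S100a8 or S100a9 UMI.

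The macrophage list still summed to 4788 CPM in control and 3870 CPM in knockout marker-low Hcar2/Ccl3 cells, against 2144 and 2274 CPM in the other marker-low cells. Of its 18 genes 16 were detected in the control, where Fcrls and Gpnmb were at 0, and 17 in the knockout library, where Ms4a7 was at 0. Most of these UMIs came from Spp1, the gene of osteopontin, with 1086 of 1368 UMIs in control cells and 1265 of 1717 in knockout cells. In the other marker-low cells Spp1 had 1383 of 3198 and 1431 of 3342 UMIs. The higher sum was not shared by most of the list. Of its 10 measured genes 2 were at least 1.5-fold higher in the Hcar2/Ccl3 cells in both libraries and 0 lower. The median log2 ratio was -0.55 in control and -0.36 in knockout cells. In the Hcar2/Ccl3 cells the complement gene C1qa was at 17.5 and 15.8 CPM, and the part of macrophage RNA in the values below was not tested. Of the other lists, that of T and NK cells summed to 14.0 and 9.02 CPM, that of basophils and mast cells to 14.0 and 11.3 CPM and that of eosinophils to 24.5 and 47.3 CPM, with Epx, Prg2 and Alox15 at 0. The fibroblast list was higher, at 399 and 313 CPM, against 393 and 377 CPM in the other marker-low cells. In the Hcar2/Ccl3 cells the platelet list was at 144 and 185 CPM and the smooth muscle list at 133 and 158 CPM. Their dendritic cell list was at 130 and 133 CPM and their endothelial list at 130 and 81.1 CPM. The red cell list was at 45.5 and 108 CPM and the B cell list at 17.5 and 20.3 CPM.

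**Figure D1:**
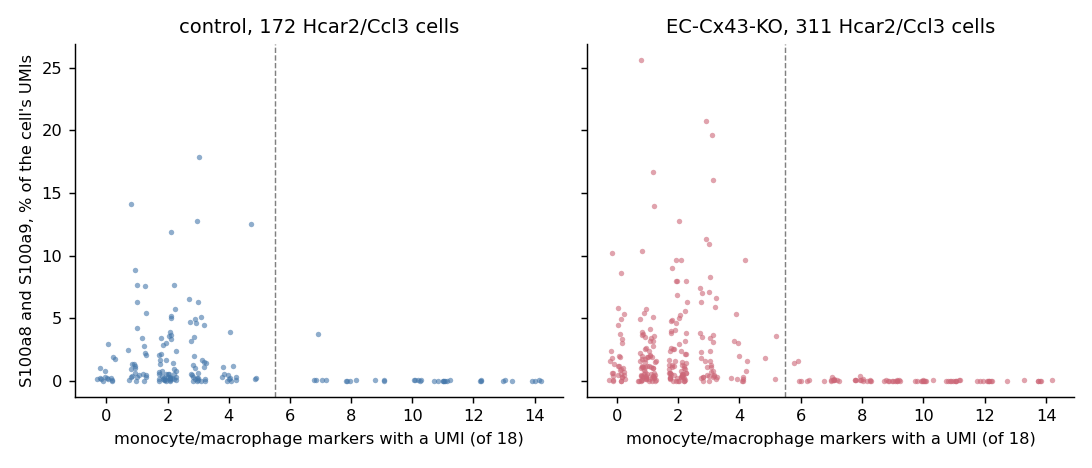
Each point is 1 Hcar2/Ccl3 cell. The horizontal axis gives how many of 18 monocyte and macrophage markers had a UMI (points are spread sideways for sight), the vertical axis the percent of the cell's UMIs from S100a8 and S100a9, and the dashed line the limit of 6 markers. Right of the line lie 35 of 172 control and 76 of 311 EC-Cx43-KO cells, most of them near 0 on the vertical axis.

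The genes of the gate had levels that the selection itself shaped. In mm10, with GENCODE gene positions, Ccl3 lies at chr11:83647844-83649355 on the minus strand, Ccl4 at chr11:83662584-83664683 on the plus strand and Hcar2 at chr5:123863570-123865499 on the minus strand. Ccl4 was at 10227 CPM in control and 14069 CPM in knockout marker-low Hcar2/Ccl3 cells, against 1497 and 2215 CPM in the other marker-low cells. Ccl3 was at 4946 and 6031 CPM, against 542 and 846 CPM. Hcar2 was at 1505 and 1397 CPM, against 296 and 335 CPM. Hcar2 had the lowest level of the 3 in both libraries, and 62.6% of the control and 62.8% of the knockout marker-low Hcar2/Ccl3 cells had a UMI of it. In the whole set Hcar2 stood at 874 and 624 CPM and was detected in 52.9% and 50.8% of the cells. The other cells of the gate included those with at least 2 of the 3 genes and at least 3 mature genes, with Hcar2 at 1190 and 1088 CPM. In other cells with at least 3 mature genes it was at 46.9 and 132 CPM, and in the remaining ones at 36.6 and 42.1 CPM.

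Of the neutrophil gate genes, Csf3r was at 1537 CPM in control and 1084 CPM in knockout marker-low Hcar2/Ccl3 cells, against 2447 and 2043 CPM in the other cells. Cxcr2, the receptor for CXC chemokines that draws neutrophils into tissue, was at 490 and 417 CPM, against 1383 and 1240 CPM. Il1r2 was at 2310 and 1812 CPM, against 5418 and 4380 CPM. The histidine decarboxylase gene Hdc was at 1428 and 1287 CPM, against 1528 and 2001 CPM, and so past 1.5-fold in the knockout library only. The transcriptional repressor gene Mxd1, at 1393 and 2001 CPM against 2489 and 2408 CPM, was past it in the control library only. G0s2, a lipase inhibitor gene, was past it in neither, at 777 and 1145 CPM against 696 and 1160 CPM. The 6 mature genes were low by selection: Retnlg, a resistin-like gene, was at 410 and 241 CPM against 2599 and 2236 CPM, and the collagenase gene Mmp8 at 28.0 and 54.1 CPM against 555 and 394 CPM.

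Fibroblasts of the same libraries, which should lack the 3 activation genes, served as a reference for free RNA. Thinned to 1000 UMIs, 250 control and 338 knockout fibroblasts remained, with unthinned median depths of 1750 and 2203 UMIs. At the thinned depth 0 of them had an Hcar2 UMI, with upper Clopper-Pearson bounds of 1.46% and 1.09%. Ccl4 was detected in 3.20% and 1.18% and Ccl3 in 0.400% and 0.592%, and 0 cells had at least 2 of the 3 genes. The marker-low cells of the whole gate were not chosen by these 3 genes. Thinned to the same depth, 18.1% of 620 control and 23.1% of 702 knockout cells of that kind had an Hcar2 UMI. In the marker-low Hcar2/Ccl3 cells the rate was 48.6% of 109 and 51.8% of 170 cells, at unthinned median depths of 2141 and 1881 UMIs. The selection raised that rate, so it is no check against free RNA. Among monocyte and macrophage reference cells, 7.76% of the control and 9.62% of the knockout cells had at least 2 of the 3 genes after thinning. For the other marker-low cells of the gate the thinned rates were 10.2% and 12.8%. By the rule, other cells with at least 2 of the 3 genes all had at least 3 mature genes, so these rates are no measure of free RNA. The gate itself used unthinned counts, and there 30.0% of the control and 33.8% of the knockout monocyte and macrophage reference cells had at least 2. These reference cells were deep, with a median of 8637 UMIs in the control and 8417 UMIs in the knockout library.

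Within the marker-low Hcar2/Ccl3 cells the 3 genes came in several combinations. All 3 were detected in 64 control cells (48.9%) and 84 knockout cells (38.5%). Ccl3 and Ccl4 without Hcar2 were found in 49 and 81 cells, Hcar2 and Ccl3 alone in 13 and 22, and Hcar2 and Ccl4 alone in 5 and 31. The cells with all 3 were the deepest, at a median of 2351 and 2340 UMIs. They also had the highest Cxcl2 level, at 21877 CPM in control and 39998 CPM in knockout cells, among the 4 combinations.

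The single cells spread widely in S100a9, the partner of S100a8. Among marker-low cells that met the gates after thinning to 1000 UMIs, 94 control Hcar2/Ccl3 cells had a median of 5.5 S100a9 UMIs, with quartiles of 2 and 25, and 574 other control cells a median of 16.5. In the knockout library the medians were 10.5, with quartiles of 2 and 30.3, in 156 cells and 15 in 593 cells. The ranges of the Hcar2/Ccl3 cells and the other cells overlapped in both libraries. For Cxcl2, a chemokine that acts on Cxcr2, the thinned medians were 11.5 UMIs against 4 in control cells and 18 against 4 in knockout cells.

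Cells just inside and just outside the gate graded into each other. Among marker-low cells with fewer than 3 mature genes, those with 2 activation genes had lysosome and lipid genes at 8238 CPM in control and 9100 CPM in knockout cells. Cells with 1 activation gene, just outside, had 5927 and 5912 CPM, at median depths of 1080 and 1227 UMIs against 1559 and 1776 UMIs inside. Of cells with at least 2 activation genes, those with 2 mature genes (46 and 77 cells) had 13239 and 10416 CPM, and those with 3 mature genes (30 and 37 cells), just outside, had 11432 and 7729 CPM.

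Over all cells of the set, 452 of 5664 measured genes (7.98%) were at least 1.5-fold higher in Hcar2/Ccl3 cells than in the other cells of the gate in both libraries, and 545 (9.62%) were lower. In the control library alone 1006 (17.8%) were higher and 1085 (19.2%) lower, and in the knockout library alone 929 (16.4%) and 879 (15.5%). In marker-low cells 365 of 3585 genes (10.2%) were higher and 569 (15.9%) lower. A gene counted as measured with at least 50 UMIs over the cells compared in each library, the genes of the gate left out. The median gene of the marker-low comparison lay at a log2 ratio of -0.15 in control and -0.17 in knockout cells, and the ratios below are to be read against that shift.

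Lysosome genes were the group with the most higher members in the whole set. There, cells with at least 6 macrophage markers were a larger share of the Hcar2/Ccl3 cells than of the other cells. Their part in the whole-set counts was not tested. Of 24 lysosome and lipid genes measured, 15 were higher in both libraries and 0 lower, with median log2 ratios of 0.83 in control and 1.04 in knockout cells. In marker-low cells 12 of 20 were higher and 1 lower, with medians of 1.02 and 1.08. These genes code for membrane proteins, hydrolases and the proton pump. Lamp1, a major lysosomal membrane protein gene, was at 1169 CPM in the control marker-low Hcar2/Ccl3 cells and 263 CPM in the other cells, a log2 ratio of 2.15 (1.93 to 2.36). In the knockout library its ratio was 1.77 (1.56 to 1.99).

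The gene of the lysosomal galactosidase Gla was at 343 CPM against 50.9 CPM in control and 221 CPM against 68.0 CPM in knockout cells. Npc1, which exports cholesterol from lysosomes, had log2 ratios of 2.69 and 2.63, and Atp6v1a, a subunit of the proton pump, of 1.76 and 1.86. Cathepsin genes differed among themselves: Ctsz (1.66 and 1.43), Ctsb (1.25 and 1.25) and Ctsd (1.09 and 0.89) were higher, while Ctss stood at 0.08 and -0.58. Lamp2 was at -0.07 and -0.23. Abca1, a cholesterol exporter of the cell surface, was the gene of the list lower in both libraries, at -0.77 and -1.20.

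The promoters of lysosome genes often carry an E-box, TCACGTG, which is the core of the element bound by Tfeb. In a RefSeq table of the mouse GRCm38.p6 build, 17 of the 24 lysosome and lipid genes had an entry, and the 250 bases before the gene start held TCACGTG on either strand in 4 of them (23.5%), against 3.13% of all 32851 promoters. Both strands were searched and overlapping matches counted. A list gene counted if any of its entries matched, while the share of all promoters was taken over single entries. Below, the windows of 2 lysosome genes with high ratios are shown, with the matches in capitals. The Lamp1 window, at chr8:13158911-13159160 on the plus strand, has 4 matches, and that of Gla, at chrX:134601006-134601255 on the minus strand, has 4 matches in 2 places.
Lamp1: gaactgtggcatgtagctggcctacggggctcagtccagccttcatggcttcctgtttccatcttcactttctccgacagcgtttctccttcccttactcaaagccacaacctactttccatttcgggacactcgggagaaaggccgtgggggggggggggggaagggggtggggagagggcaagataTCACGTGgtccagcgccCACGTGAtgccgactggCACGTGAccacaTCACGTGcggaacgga
Gla: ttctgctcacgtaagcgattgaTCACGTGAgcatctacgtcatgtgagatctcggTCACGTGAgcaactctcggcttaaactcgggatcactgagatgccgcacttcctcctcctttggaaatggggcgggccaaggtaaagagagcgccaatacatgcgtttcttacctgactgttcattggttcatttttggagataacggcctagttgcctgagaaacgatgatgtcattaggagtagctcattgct
A match describes the letters of the window and is not evidence of binding here.

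Genes reported for neutrophils dwelling in inflamed tissue formed the group with the highest share of higher members in marker-low cells. Of 18 measured outside the gate, 15 were higher in both libraries and 0 lower, with medians of 1.18 and 1.13. In the whole set 9 of 20 were higher, with medians of 0.81 and 0.71. Ftl1, the ferritin light chain gene, was at 8712 CPM against 3020 CPM in control and 13818 CPM against 4189 CPM in knockout cells. Cstb, a cathepsin inhibitor gene, had log2 ratios of 1.83 and 2.16. Cd63, a tetraspanin of granule and lysosome membranes, was at 483 CPM against 180 CPM and 548 CPM against 141 CPM, and Hilpda, a lipid droplet gene, had log2 ratios of 1.76 and 1.57. Siglecf, which marks some tissue neutrophils and eosinophils, had too few UMIs to be measured, at 21.0 and 27.0 CPM.

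Iron and oxidative stress genes came next by this share. Of 16 measured in marker-low cells, 10 were higher and 0 lower, with medians of 0.91 and 0.95, and in the whole set 6 of 17 were higher and 1 lower. The ferritin heavy chain gene Fth1 was at 15302 CPM against 8119 CPM in control and 17927 CPM against 10455 CPM in knockout cells. Hmox1, which breaks down haem, had log2 ratios of 1.47 and 1.56. The autophagy receptor gene Sqstm1 had 2.03 and 2.30, and the peroxiredoxin gene Prdx1 had 1.46 and 2.54. Prdx5 went the other way, at -0.52 and -0.49.

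Secreted signals were unequal. Of the cytokine and growth factor list 6 of 10 measured genes were higher in marker-low cells and 0 lower, with medians of 1.08 and 0.85, and 5 of 14 in the whole set. Il1rn, the interleukin 1 receptor antagonist, was at 4393 CPM against 1158 CPM in control and 4098 CPM against 1036 CPM in knockout cells. Il1b was nearly level, at 5607 CPM against 4862 CPM and 6444 CPM against 5619 CPM. Csf1, which sustains macrophages, had log2 ratios of 1.76 and 1.38, and Tnf of 1.42 and 1.28.

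Of the chemokines outside the gate, 4 of 8 measured genes were higher and 0 lower. Cxcl2 was at 17161 CPM against 6640 CPM in control and 26882 CPM against 11288 CPM in knockout cells. Cxcl3, which acts on the same receptor, had log2 ratios of 1.18 and 0.89. Ccl6 stood at -0.28 and -0.35. Ptgs2, the inducible cyclooxygenase, was at 3983 CPM against 610 CPM and 3212 CPM against 906 CPM, while the leukotriene genes Alox5 (-1.35 and -1.59) and Alox5ap (-0.91 and -0.95) were lower.

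Genes of early response and stress were higher in part. Of 25 early response genes 9 were higher and 0 lower in marker-low cells, among them Jun (1.55 and 1.82), Atf3 (1.76 and 1.91) and Maff (1.76 and 1.36), but Fos stood at 0.07 and 0.15. The NF-kB list was nearly level, with 3 of 18 higher, 1 lower and medians of 0.35 and 0.30. Of 6 heat shock genes 3 were higher, with medians of 1.37 and 0.59. Of the 68 control UMIs of Hspa1b, a heat shock protein gene, 61 came from 1 cell. Outside these lists P2rx7, an ATP-gated channel gene, had log2 ratios of 4.15 and 2.95, but its 313 control UMIs came from 11 cells. The arteries were digested with enzyme and frozen, and the part of that handling in these genes was not tested.

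Granule genes leaned lower and adhesion genes were mixed. The other cells include those with at least 3 mature genes, which the gate barred from the Hcar2/Ccl3 cells, so the selection itself shaped the granule comparison. Of 16 secondary and tertiary granule genes 5 were lower and 1 higher in marker-low cells, and 7 were lower and 1 higher in the whole set. Ngp, a granule protein gene of late marrow stages, was at 3.50 CPM against 181 CPM in control and 9.02 CPM against 295 CPM in knockout cells. The haptoglobin gene Hp had log2 ratios of -2.41 and -1.48. Olfm4, carried by a subset of neutrophils, was the higher gene, at 1.17 and 0.92, with its 37 control UMIs in 5 cells. Marker-low cells with fewer than 3 mature genes, thinned to 1000 UMIs, differed little in granule genes by their number of activation genes. The list had means of 5.18 UMIs with 0 and 5.19 with 3 activation genes in the control. In the knockout library these means were 5.45 and 5.76. Of 15 adhesion genes 4 were higher and 2 lower in marker-low Hcar2/Ccl3 cells than in the other marker-low cells. Selplg, which codes for a rolling adhesion ligand of leukocytes, was among the lower (-1.09 and -1.30). The integrin gene Itgax (1.89 and 1.36), the endothelial and leukocyte adhesion gene Icam1 (1.24 and 0.67) and the tetraspanin gene Cd9 (1.15 and 1.10) were among the higher.

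The place of S100a8 and S100a9 depended on the cells compared. Against all other marker-low cells the log2 ratio of S100a8 was -1.42 in control and -1.38 in knockout cells, and over the whole set it was -1.77 and -2.00. Against only those cells of the gate that were low in both the mature and the activation genes, the whole set had ratios of 0.96 and 0.56 for S100a8 and 0.91 and 0.65 for S100a9. Ly6g, a surface marker of mouse neutrophils, was at 14.0 CPM against 67.7 CPM in control and 13.5 CPM against 73.5 CPM in knockout cells.

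Several other lists were counted in the same way. Of 7 prostanoid and leukotriene genes 2 were higher and 3 lower in marker-low cells. Of 20 neutrophil markers outside the gate 6 were lower and 2 higher in marker-low cells, and 10 were lower and 0 higher in the whole set. The selection on mature genes shaped this count too. Of 22 pattern and Fc receptor genes 3 were higher and 0 lower, and the endotoxin receptor gene Tlr4 stood at 0.10 and 0.26. Of 19 apoptosis and survival genes 4 were higher and 1 lower, with the death effector gene Bax at 1.71 and 1.93 and the survival gene Mcl1 at -0.52 and -0.13. Of 22 glycolysis and hypoxia genes 1 was higher and 1 lower, of 37 ribosomal protein genes 0 and 2, and of 7 NADPH oxidase genes 0 and 1. The share of genes counted higher or lower over all genes was 10.2% and 15.9%.

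The ranking by the smaller of the 2 libraries' log2 ratios put Npc1 first in marker-low cells. Behind it came Kntc1 (2.55 and 2.70), the cyclic nucleotide phosphodiesterase gene Pde1a (2.82 and 2.48), the melanoregulin gene Mreg (3.02 and 2.39), the endoplasmic reticulum co-chaperone gene Dnajb9 (2.87 and 2.34) and the anion transporter gene Slc26a11 (3.91 and 2.25). Of the 89 control Slc26a11 UMIs 39 came from 1 cell. The rest of the 12 were Plbd1, a lysosomal phospholipase-like gene (2.63 and 2.17), the proton pump subunit gene Atp6v1c1 (2.28 and 2.07), Gpr137b, which codes for a lysosomal membrane protein (2.29 and 2.06), Ifrd1 (2.09 and 2.04), Fnip2 (2.04 and 2.07) and Sqstm1. Of these 12, Npc1, Pde1a, Mreg, Plbd1 and Sqstm1 were also among the 12 of the whole set. That ranking also held the lysosomal chloride transporter gene Clcn7 (2.13 and 1.41) and, among genes that macrophages express too, Ms4a4c (2.11 and 1.94), Aif1 (1.92 and 1.40) and Bst2 (1.38 and 1.64).

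The 12 lowest marker-low genes were led by the kinase gene Lrrk2 (-2.85 and -3.00), the Rap GTPase activator gene Sipa1l1 (-2.62 and -3.09), the metalloprotease gene Adam19 (-2.39 and -2.84) and the endosomal exchanger gene Slc9a9 (-2.50 and -2.31). The xanthine oxidoreductase gene Xdh had -2.13 and -1.93 and the sulfhydryl oxidase gene Qsox1 -1.85 and -1.80. Rnf144a, R3hdm4, Dgkg, Mctp2, Cep120 and Nek9 completed the list, between -1.77 and -2.99. All 12 had few UMIs in the control Hcar2/Ccl3 cells, from 4 to 24.

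**Figure D2:**
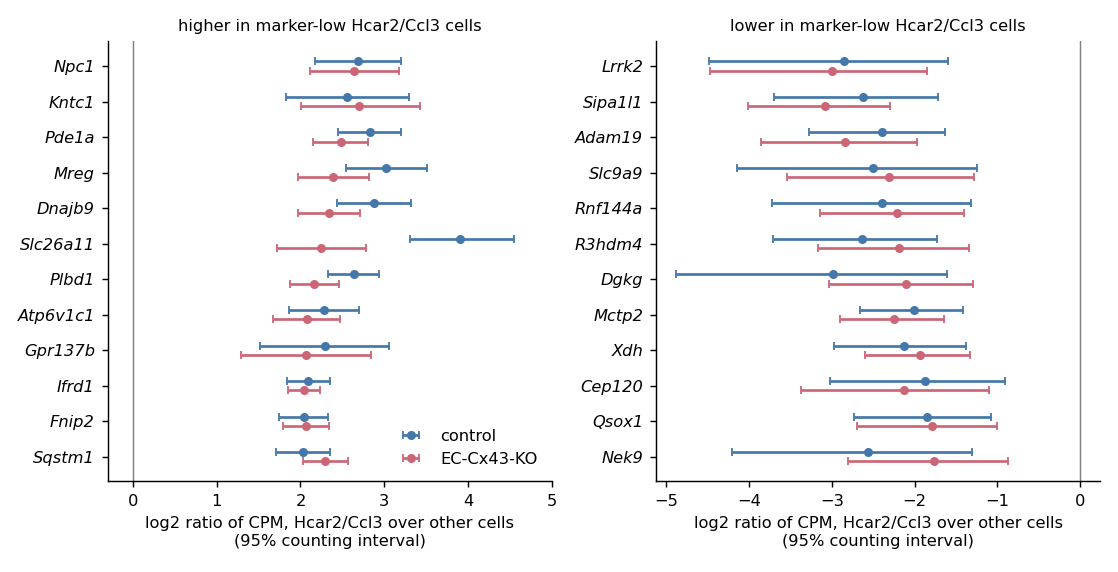
Log2 ratio of CPM in marker-low Hcar2/Ccl3 cells over other marker-low cells, for the 12 highest and 12 lowest genes of the ranking. Points are the 2 libraries and bars 95% counting intervals; in each gene both libraries lie on the same side of 0, and Slc26a11 shows the widest gap between them (3.91 and 2.25).

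The number of activation genes went with the level of several lists in cells of equal depth. Marker-low cells with fewer than 3 mature genes were thinned to 1000 UMIs and grouped by 0, 1, 2 or 3 activation genes, counted before thinning, so that cells with more of them were also deeper at first. Mean UMIs of the tissue neutrophil genes were 8.10, 11.3, 18.4 and 26.3 in control cells and 7.45, 12.1, 21.9 and 38.0 in knockout cells. Lysosome and lipid genes went from 4.73 to 15.1 and from 4.38 to 11.1, and iron and oxidative stress genes from 14.1 to 34.8 and from 12.8 to 52.4. The mean of heat shock genes went from 1.14 to 5.33 and from 0.815 to 3.91, but their medians only from 0 to 1.5 and from 1 to 1.5. Interferon response genes had medians of 6 with 0 and 3 with 3 activation genes in control cells and of 7 and 4 in knockout cells, so the higher knockout mean with 3 genes (17.4, upper quartile 21.5) lay in part of the cells. Secondary and tertiary granule genes were nearly flat, between 4.94 and 6.25 over all 8 groups of cells. Neutrophil markers outside the gate were higher with 3 activation genes (49.2 and 52.9) than with 0 (29.7 and 29.1).

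**Figure D3:**
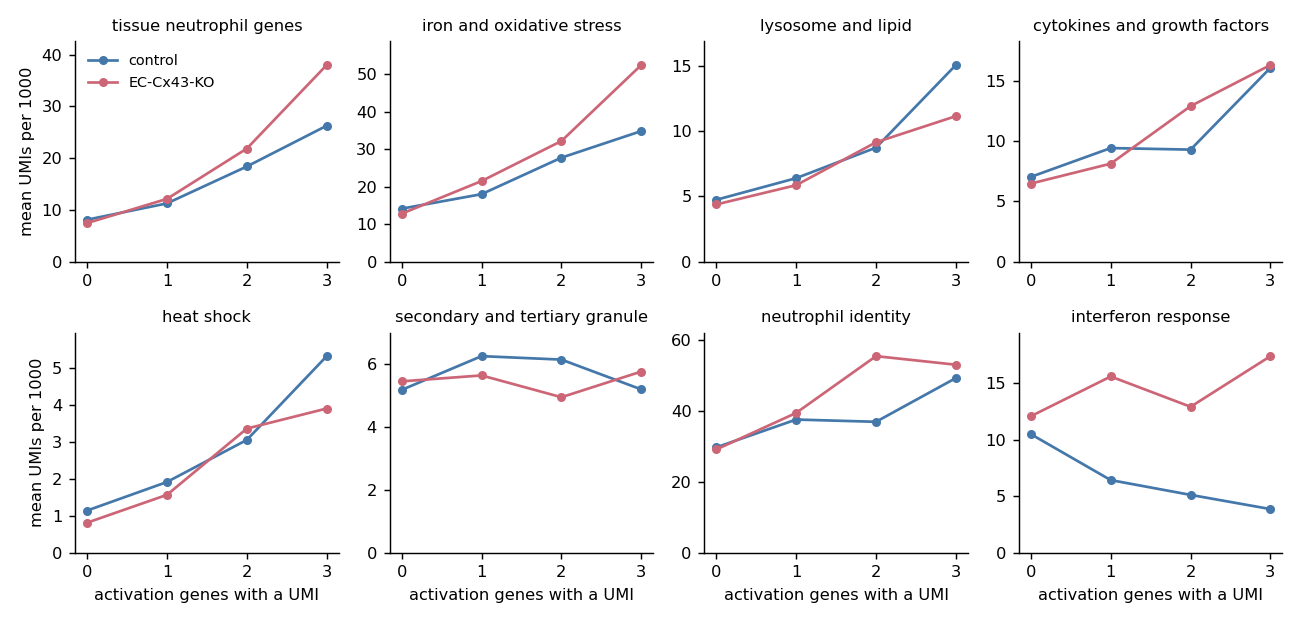
Mean UMIs per 1000 of 8 gene lists (gate genes left out) in marker-low cells with fewer than 3 mature genes, by the number of activation genes detected, for each library. Tissue neutrophil, iron, lysosome and heat shock genes have higher means at each step in both libraries, while interferon response genes go from 10.5 to 3.86 in the control and have means of 12.1, 15.6, 12.9 and 17.4 in the EC-Cx43-KO library, where the medians are 7, 6, 6 and 4.

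The Hcar2/Ccl3 cells made up more of the gated cells in the knockout library. They were 172 of 1040 in the control (16.5%, Clopper-Pearson interval 14.3 to 18.9) and 311 of 1220 in the knockout library (25.5%, 23.1 to 28.0), a log2 ratio of 0.62 (Katz interval 0.38 to 0.86). In marker-low cells the shares were 15.4% (131 of 851) and 22.2% (218 of 983), a log2 ratio of 0.53 (0.24 to 0.81). After thinning to 1000 UMIs they were 14.1% and 20.8%. Marker-low cells of the gate were 12.6% and 12.7% of all filtered barcodes. The cells with at least 3 mature genes and fewer than 2 activation genes went the other way, from 31.0% to 23.9% of the marker-low gate.

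The shares were also taken in cells of each sex. Among marker-low cells with Xist UMIs only, 21 of 122 control cells (17.2%, 11.0 to 25.1) and 29 of 111 knockout cells (26.1%, 18.2 to 35.3) were Hcar2/Ccl3 cells. Among those with Y-linked UMIs only, the numbers were 10 of 80 (12.5%, 6.16 to 21.8) and 18 of 139 (12.9%, 7.86 to 19.7). The log2 ratio was 0.60 (-0.12 to 1.32) in the first and 0.05 (-0.99 to 1.09) in the second, so the intervals overlap. In the whole set the ratios were 0.97 (0.53 to 1.42) and -0.12 (-0.93 to 0.69). The libraries held the sexes in different proportions, and genotype, pool and sex makeup cannot be told apart with 1 library a group.

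**Figure D4:**
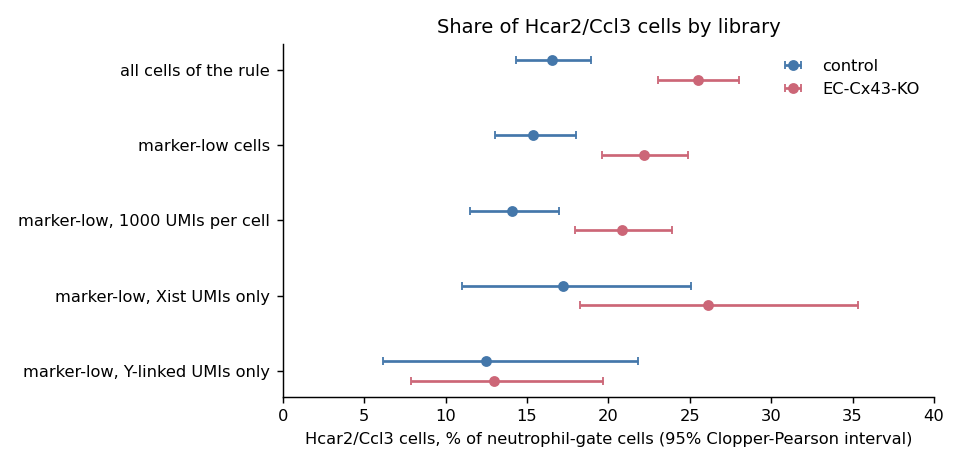
Percent of neutrophil-gate cells that were Hcar2/Ccl3 cells in the control and EC-Cx43-KO libraries, with 95% Clopper-Pearson intervals. The knockout points lie higher in the whole set (25.5% against 16.5%) and in marker-low cells (22.2% against 15.4%), and the points of cells with Y-linked UMIs only nearly coincide (12.5% and 12.9%).

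Interferon response genes had the highest list median between the libraries in the Hcar2/Ccl3 cells. Over the whole set 514 of 4388 genes (11.7%) were at least 1.5-fold higher in the knockout library and 438 (9.98%) lower. In marker-low cells 185 of 2099 (8.81%) were higher and 270 (12.9%) lower. Of the interferon list 33 of 35 measured genes were higher and 0 lower in the whole set, with a median log2 ratio of 2.08, and 25 of 27 in marker-low cells, with a median of 2.37. In the other cells of the gate, where 6.62% of 7096 genes were higher and 6.45% lower, the list had 28 of 36 genes higher and a median of 1.01. In the other marker-low cells, where 6.17% of 4832 genes were higher and 6.77% lower, it had 25 of 34 higher and a median of 0.68. Whether the 2 kinds of cells differ in this was not tested.

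Ifit1, an RNA-binding antiviral gene, had 10 UMIs in 7 marker-low control Hcar2/Ccl3 cells and 302 UMIs in 40 knockout cells, a log2 ratio of 4.28 (3.38 to 5.36). Rsad2, the gene of the antiviral enzyme viperin, was at 130 CPM and 2200 CPM, and in the other marker-low cells at 404 CPM and 863 CPM. Isg15, a ubiquitin-like modifier, was at 126 CPM and 829 CPM. Cxcl10, a chemokine for T cells, was at 38.5 CPM and 401 CPM. Irf1 was level, at 119 CPM in both. The 8 highest marker-low genes were Ifit1, Rsad2, Ifit3b, Cmpk2, Herc6, Ifit3, Ddx60 and Ifit2, all of them induced by interferon. Ifit2 had 0 control UMIs, and taking the floor of 3 UMIs there it was at least 3.56 higher on the log2 scale. The paralogs Ifit3 and Ifit3b are close copies, and reads may have been split between them.

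Interferon genes also lay differently within each library. In the control library the list was lower in marker-low Hcar2/Ccl3 cells than in the other cells, 4438 CPM against 8161 CPM, with a median log2 ratio of -1.14. In the knockout library it was 14499 CPM against 12306 CPM, with a median of 0.18. The high knockout values lay in part of the cells. Thinned to 1000 UMIs, 31.2% of the knockout and 8.26% of the control marker-low Hcar2/Ccl3 cells had at least 10 interferon list UMIs, with medians of 5 and 4. Among the other marker-low cells the percentages were 37.8 and 24.7.

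By sex, the interferon list was at 4810 CPM in 21 control and 8536 CPM in 29 knockout marker-low Hcar2/Ccl3 cells with Xist UMIs only, and at 5688 and 12278 CPM in those with Y-linked UMIs only (10 and 18 cells). Over the whole set the median log2 ratio of the list was 1.90 in the cells with Xist UMIs only and 0.04 in those with Y-linked UMIs only (16 and 28 cells). Interferon genes in the cells with at least 6 macrophage markers were at 5907 CPM in control and 21482 CPM in knockout cells.

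**Figure D5:**
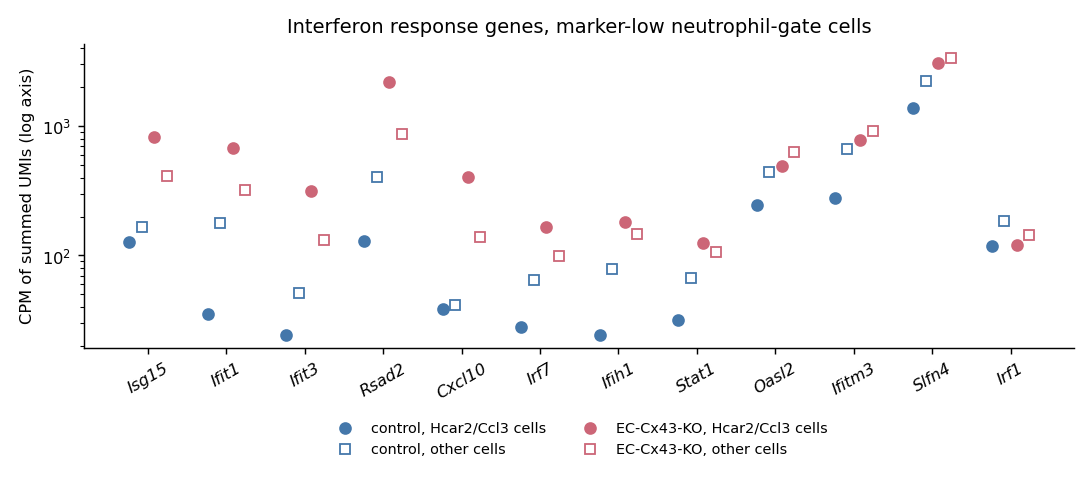
CPM of 12 interferon response genes on a log axis in marker-low Hcar2/Ccl3 cells (filled circles) and other marker-low cells (open squares) of the control and EC-Cx43-KO libraries. Rsad2 goes from 130 to 2200 CPM in the Hcar2/Ccl3 cells and from 404 to 863 CPM in the other cells, and Irf1 is level in the Hcar2/Ccl3 cells at 119 CPM.

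Many interferon genes carry the interferon-stimulated response element, whose core is 2 GAAA blocks. The letters GAAANNGAAA were searched on both strands of the same RefSeq windows and counted in the same way. They were held by 17 of 31 interferon list genes with an entry (54.8%), against 2.98% of all promoters. Of the 17 lysosome and lipid genes 2 held them. The Ifit3 window, at chr19:34583279-34583528 on the plus strand, has 2 matches. The Isg15 window, at chr4:156200819-156201068 on the minus strand, has 3 overlapping ones. Ifit3 is shown as 1 of the 8 marker-low genes highest in the knockout library and Isg15 as a gene near the median of the list, with the matches in capitals.
Ifit3: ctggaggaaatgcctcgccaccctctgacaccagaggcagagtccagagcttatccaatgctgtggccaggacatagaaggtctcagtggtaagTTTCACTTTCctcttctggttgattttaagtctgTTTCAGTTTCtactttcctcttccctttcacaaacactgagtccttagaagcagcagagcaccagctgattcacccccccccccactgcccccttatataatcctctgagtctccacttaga
Isg15: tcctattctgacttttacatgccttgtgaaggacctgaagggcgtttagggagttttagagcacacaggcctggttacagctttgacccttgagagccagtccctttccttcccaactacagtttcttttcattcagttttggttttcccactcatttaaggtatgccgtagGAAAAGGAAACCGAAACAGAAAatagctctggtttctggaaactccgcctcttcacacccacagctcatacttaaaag
The search describes letters and shows no binding.

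The 8 marker-low genes lowest in the knockout library had between 17 and 43 UMIs there. First among them was Ep400, at -3.16, but 98 of its 121 control UMIs came from 1 cell, and without each library's highest cell the ratio was -0.99. Chil3, a chitinase-like gene of young neutrophils and monocytes, was at 431 CPM in 22 control cells and 96.9 CPM in 14 knockout cells, a log2 ratio of -2.15 (-2.69 to -1.64). Over the whole set Chil3 was at -0.72, but at 0.39 after thinning and 0.69 in cells with all 3 activation genes. Srsf7 (-1.87), Tnfaip8 (-1.80), Ipcef1 (-1.77), Sap18 (-1.77), Gtf2f2 (-1.76) and Atp2a2 (-1.70) came after it. In the whole set the 8 highest genes were Ifit2, Lipg, Ifi206, Spon1, Ccl8, Ifit3, Ifit3b and Ifit1. Ccl8, a monocyte chemokine gene, was at 62.3 CPM and 847 CPM, with 248 of its 898 knockout UMIs in 1 cell, and in marker-low cells it had 2 control and 12 knockout UMIs. The endothelial lipase gene Lipg had 4 and 187 UMIs in the whole set and 0 and 9 in marker-low cells. Lysosome and tissue neutrophil lists were nearly level between the libraries, with medians of -0.05 and 0.18, as was the ribosomal list, at 0.05.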

How the data were processed

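Single-cell RNA was measured in 2 libraries, 1 per group. Each deposited file holds UMI counts of genes in barcodes, written by Cell Ranger 8.0.1 per the file headers. The submitters' processing notes name mm10 as build, and STAR without a version. The cells and the gene lists were chosen with earlier results of these data known.

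Counts were summed over the cells of a class and library and scaled to CPM with Python 3.11.15, NumPy 2.4.6, SciPy 1.17.1 and pandas 2.3.3. A gene with fewer than 3 UMIs took 3 in a ratio. Ratios carry exact conditional binomial, shares Clopper-Pearson and share ratios Katz intervals, all at 95%. Only the intervals of gene ratios were checked on simulated data. Those counts were drawn for sums over cells, so UMIs that pile up in single cells were not covered. With 1 library a group no test was made, and a gene is called higher or lower from 1.5-fold (0.58 on the log2 scale). Thinning drew 1000 UMIs per cell and left out shallower cells.

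Named genes are the 15 genes of the gates, the 12 highest and 12 lowest genes by the smaller ratio of the 2 libraries (at least 10% of cells of the higher kind), the 8 highest and 8 lowest between libraries, and members of the lists. Mitochondrial, ribosomal, haemoglobin, sex-linked and unnamed genes were left out of rankings. Positions are from GENCODE. No doublet caller was run: the gate bars Csf1r and Col1a2, and the marker-low cells leave out those with several markers of another cell type. Alternatives varied the filters, gates, depth, scaling, thresholds and comparison cells.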

Additional observations from a re-analysis of the deposited data

Results flagged for a closer look

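Sap18, a gene of a histone deacetylase complex, moved in opposite directions between the libraries in the 2 kinds of marker-low cells. Its log2 ratio, knockout over control, was -1.77 (-2.59 to -0.99) in Hcar2/Ccl3 cells and 0.64 in the other cells of the gate. Of the 46 control UMIs in Hcar2/Ccl3 cells 24 came from 1 cell, and without each library's highest cell the ratio was -0.92. The difference between the 2 kinds of cells was not tested.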

How the results depend on the processing

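No paired analysis was possible because each group has 1 library, and no library could be left out. The values for marker-low cells and those without each gene's highest cell were chosen after seeing the data. Of the values compared with the whole set under each setting, 10 of single genes, 3 list medians and 1 ratio of shares changed sign. With all 3 activation genes required, Aif1 (knockout library) was at -0.54, Bst2 and Ms4a4c (control) at -0.13 and -0.85, the control chemokine and heat shock medians at -0.60 and -0.16 and Chil3 between libraries at 0.69. With 3 neutrophil genes required Bst2 was at -0.24, and thinned Chil3 was at 0.39. Against cells low in both gene sets S100a8 was at 0.96 and 0.56 and S100a9 at 0.91 and 0.65. In cells with Y-linked UMIs only the MHC median between libraries was -0.70. The log2 ratio of the shares was -0.12 in those cells, 0.97 in cells with Xist UMIs only, 0.20 with all 3 activation genes and 1.10 without cells holding 2 markers of another type. The control share was 11.7% with fewer than 2 mature genes, 6.83% with all 3 activation genes, 9.35% without 2-marker cells, 13.6% thinned, 19.6% with Xist only and 14.1% in thinned marker-low cells. The knockout share was 18.2%, 7.87%, 20.0%, 20.9%, 38.4% and 20.8% there, 22.2% with 3 neutrophil genes, 15.5% with Y-linked UMIs only and 22.2% in marker-low cells.

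Counts of genes moved with the cells, depth and threshold, and the number of genes measured moved with the cells, depth and UMI minimum. The main counts were 452 higher and 545 lower of 5664 in Hcar2/Ccl3 cells, and 514 and 438 of 4388 between libraries. Of the genes measured under each setting, those higher in Hcar2/Ccl3 cells numbered 142 of 1747 without 2-marker cells and 207 of 2263 thinned. They numbered 870 of 5664 with free RNA subtracted, 689 of 8121 from 20 UMIs and 4537 of 15003 from 1 UMI. At 2-fold they were 104 of 5664, against mature cells 1087 of 3905 and against cells low in both sets 192 of 4799. In marker-low cells they were 192 of 1977 thinned and 286 of 3412 without the highest cell. Genes lower numbered 1274 of 5664 with all 3 activation genes, 279 of 1747 without 2-marker cells and 200 of 5664 at 2-fold. Genes higher in the knockout library numbered 103 of 720 without 2-marker cells, 110 of 1002 thinned and 1103 of 6925 from 20 UMIs. From 1 UMI they were 1668 of 14986, at 2-fold 222 of 4388 and with Y-linked UMIs only 101 of 800. In marker-low cells they were 185 of 2099, without the highest cell 185 of 1912 and thinned 84 of 866. Genes lower there, of the same numbers measured, were 118, 139, 951, 6331, 78 and 138 under the same settings in that order. In marker-low cells they were 270, without the highest cell 190 and thinned 116. Lower UMI minimums test more genes, fewer or thinned cells test fewer, and the 2-fold threshold passes fewer by construction. Beyond that the cause was not tested. The free RNA share subtracted was 20.5% of the control and 18.9% of the knockout UMIs, a median over marker lists. The lists ranged from 5.94% to 151% in control and from 5.75% to 125% in knockout cells, so the count of 870 rests on an unsure share. The median of all genes, Hcar2/Ccl3 over other cells, moved from 0.02 and 0.05 to -0.45 and -0.38 with all 3 activation genes and to 0.50 and 0.34 from 1 UMI, and between libraries from -0.06 to -0.41 from 1 UMI. Depth limits the reading of Hcar2, whose thinned median was 1 UMI.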

Other observations

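Cells of the gate with at least 3 mature genes and at least 2 activation genes fell outside the Hcar2/Ccl3 cells, yet part of the same pattern was found in them. They were 10.3% of the control and 9.66% of the knockout marker-low gate. Thinned to 1000 UMIs, marker-low cells with at least 3 mature genes had a mean of 6.44 UMIs of the tissue neutrophil genes with 0 activation genes and 27.5 with 3 in control cells, and 7.06 and 27.7 in knockout cells. Lysosome and lipid genes went from 4.31 to 12.9 and from 4.42 to 8.45. Interferon response genes were at 8.72 and 7.39 in control and 9.29 and 11.0 in knockout cells. Hcar2 was at 1192 and 1088 CPM in the cells with at least 2 activation genes, against 1505 and 1397 CPM in the Hcar2/Ccl3 cells. No test was made on these values.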
